A study of Mus musculus with 2 samples.

Results

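The eye field homeobox transcription factors examined here are Pax6, Six3, Six6, Rax, Lhx2, Otx1, Otx2 and Pax2, 8 genes chosen by name. Their probe sets were taken from the array's annotation wherever 1 gene symbol was given, which yielded 13 probe sets for 7 of the 8 genes, out of 34958 such probe sets for 18194 genes on the array. Pax2 was not analysed here. Expression was measured in 2 single cells picked from dissociated retinas of CD1 mice, an albino outbred strain: 1 from embryonic day 12.5 (the embryonic cell, E12.5 in the plots) and 1 from the day of birth (the newborn cell, P0), each on its own Affymetrix mouse expression array. The labels name no genetic change or drug treatment, and both cells carry the label ciliary body, the folded secretory epithelium behind the iris. The submitters assigned that label from the cells' own expression after scoring had matched neither cell to a retinal cell type, so each group is a single cell whose identity was not established independently. With 1 cell per age, every difference below is between these 2 cells, with no replicate check and no p-value.

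Homeobox genes encode transcription factors that bind DNA through a homeodomain. Early in development the eye field, a patch of the anterior neural plate, is marked by overlapping expression of Rax, Pax6, Six3, Six6, Lhx2 and Otx genes, and the optic vesicles grow out from it. Later, Otx1 and Otx2 act in the pigment epithelium and at the rim of the optic cup, Pax6 and Lhx2 maintain dividing retinal progenitors, and Pax2 marks the optic stalk that becomes the optic nerve. Loss of Pax6, Rax or Lhx2 in mice blocks eye formation.

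The promoters of Pax6, Six3, Six6 and Lhx2, which were above background in both cells as Rax was, are printed to show the sequence at their starts; that of Rax is not shown. The 250 bases before the annotated start were taken from RefSeq, build GRCm38.p6. From it 13 starts of 6 of the 8 genes were used, without Rax and Otx1, and the 5'-most start of Pax6 and Lhx2 is printed. All are on the plus strand, and capitals mark the CCAAT box in either orientation, CCAAT or ATTGG. The Pax6 stretch is chr2:105668646-105668895, that of Six3 chr17:85620584-85620833, that of Six6 chr12:72939632-72939881 and that of Lhx2 chr2:38339031-38339280.
Pax6: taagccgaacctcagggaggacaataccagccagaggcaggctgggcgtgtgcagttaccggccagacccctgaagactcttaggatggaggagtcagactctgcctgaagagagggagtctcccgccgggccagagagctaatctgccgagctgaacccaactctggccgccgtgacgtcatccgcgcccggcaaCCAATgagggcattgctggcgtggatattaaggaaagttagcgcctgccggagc
Six3: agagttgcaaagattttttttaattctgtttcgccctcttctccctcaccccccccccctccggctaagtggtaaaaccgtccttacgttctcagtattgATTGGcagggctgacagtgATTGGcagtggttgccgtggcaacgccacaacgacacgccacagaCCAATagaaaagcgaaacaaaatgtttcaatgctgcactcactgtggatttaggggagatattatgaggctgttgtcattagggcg
Six6: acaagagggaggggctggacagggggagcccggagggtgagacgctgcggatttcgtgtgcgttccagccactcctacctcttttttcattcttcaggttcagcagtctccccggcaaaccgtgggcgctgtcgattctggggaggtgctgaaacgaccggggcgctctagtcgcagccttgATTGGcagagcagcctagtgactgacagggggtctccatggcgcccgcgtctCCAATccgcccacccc
Lhx2: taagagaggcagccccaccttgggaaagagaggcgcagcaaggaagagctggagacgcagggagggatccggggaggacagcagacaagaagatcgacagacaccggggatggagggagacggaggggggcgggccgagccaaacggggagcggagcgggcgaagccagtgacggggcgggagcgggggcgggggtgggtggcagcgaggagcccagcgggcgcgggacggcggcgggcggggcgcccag
Of the printed stretches, that of Six3 held 3 CCAAT boxes, that of Six6 2, that of Pax6 1 and that of Lhx2 none. At least 1 is held by 33.8% of the 32851 stretches of this length in the table. The further start of Pax6 and that of Lhx2, not printed, had no CCAAT box. The homeodomain sequence TAATTA, which reads the same on both strands, and the Otx-type sequence TAATCC, searched on both strands, were in none of these 4 stretches. They occur in 4.84% and 6.25% of all stretches, and no motif overlapped another. Otx2 had TAATTA before 2 of its 4 starts, with 3 matches before 1 of them, which also held TAATCC. The Lhx2 stretch was 72.8% G and C and the Six3 stretch 48.8%, against a median of 52.4% over all stretches.

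The values are MAS5 signals, intensities on a linear scale that the authors computed per probe set and scaled per array. A background limit was set for each array from 179 probe sets of genes that the eye is not known to use, such as olfactory receptors and keratin-associated proteins, as the 99th percentile of their signals. The limit was 256 in the embryonic cell and 348 in the newborn cell. A gene with several probe sets was represented by the one with the highest mean log2 signal. A call of higher in 1 cell required a signal above the limit there and a difference of 4-fold or more, after both signals had been raised to their limits; "at least" marks a fold whose dimmer side was below its limit. The median log2 ratio of P0 over E12.5 was 0.00 over the 3398 genes above both limits, with an SD of 1.46. Hybridisation spike-ins, bacterial and phage transcripts added in fixed amounts, were 1.82-fold brighter on the newborn cell's array. The 3' over 5' signal ratio of Actb was 6.17 in the embryonic cell and 2.20 in the newborn cell, and that of Gapdh 1.06 and 1.43.

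The eye field factors were for the most part above background in both cells by their leading probe sets. Of the 7 measured genes, 6 were above the limit in the embryonic cell, 5 in the newborn cell and 5 in both. With the mean over probe sets in place of the leading one, 3 were above it in both. Of all named genes, 30.3% were above the limit in the embryonic cell, 28.4% in the newborn cell and 18.7% in both. Pax6, Six3, Six6, Rax and Lhx2 were the 5 genes above it in both cells, Otx1 was above it in the embryonic cell and Otx2 in neither. Because the cells were assigned to the eye rim by their expression, these detections are not independent of that assignment. At the level of single probe sets, 8 of 13 were above the limit in the embryonic cell and 6 in the newborn cell, where 24.1% and 22.4% of all named probe sets were. A total of 4 of the 13 were called higher in the embryonic cell and 1 in the newborn cell, calls that 5.68% and 7.24% of all named probe sets received.

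**Figure D1:**
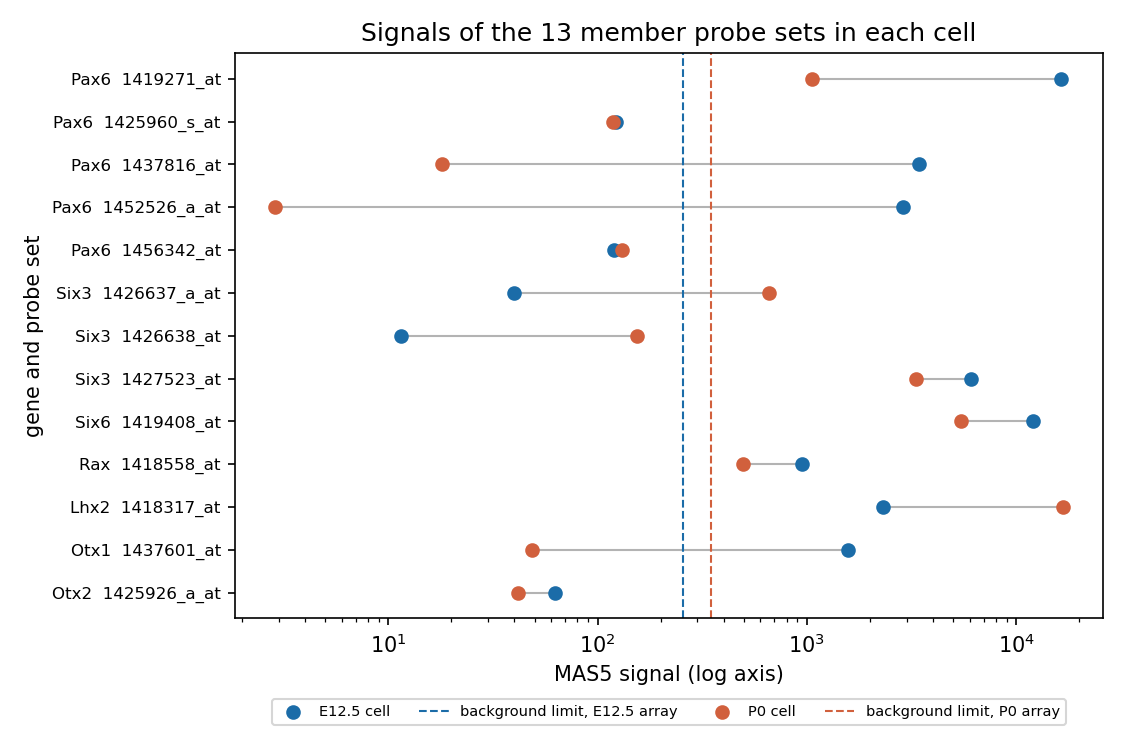
MAS5 signal (log axis) of each of the 13 probe sets in the embryonic cell (blue) and the newborn cell (orange), 1 array each, with a dashed line at each array's background limit (256 and 348). Both points lie right of the limits for the leading probe sets of Pax6, Six3, Six6, Rax and Lhx2, while 4 probe sets lie left of them in both cells.

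Pax6, a paired-domain and homeodomain factor often described as a master regulator of eye development, had the largest fold among the 5 factors above background in both cells. Its leading probe set, 1419271_at, had a signal of 16320.5 in the embryonic cell and 1059 in the newborn cell. It was above the limit in both and 15.4-fold higher in the embryonic cell. A second Pax6 probe set, 1437816_at, had 3424 and 18.1, at least 9.83-fold higher in the embryonic cell. The third, 1452526_a_at, had 2888 and 2.87, at least 8.29-fold higher in the embryonic cell. These 3 probe sets had the same direction, and only the first was above the limit in the newborn cell. The other two were below the limit in both cells, 1425960_s_at at 122 and 119 and 1456342_at at 120 and 130. Probe sets of a gene read the same amplified cDNA and are not replicates. Of the 343 genes with 5 probe sets and at least 1 above a limit, 77.8% had 3 or fewer above a limit, as Pax6 had. When the log2 signals of all 5 Pax6 probe sets were averaged, the means corresponded to signals of 1189 in the embryonic cell and 61.1 in the newborn cell. The newborn mean was below its limit, so the fold became a bound of at least 3.41 in the same direction and the call was lost. Before the limit was applied, the averaged log2 signals differed by -4.28, a value that includes signals below the limit and so gives no fold.

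Six3 and Six6, closely related members of the sine oculis family that act in the forebrain and retina, were above background in both cells and differed by less than 4-fold. Six6, which promotes proliferation of retinal progenitors, had 1 probe set with a signal of 12088.5 in the embryonic cell and 5451 in the newborn cell. It was 2.22-fold higher in the embryonic cell, and its log2 ratio of -1.15 became -2.02, just past 4-fold, with scaling to the spike-ins. The leading Six3 probe set, 1427523_at, had 6099 in the embryonic cell and 3322 in the newborn cell, 1.84-fold higher in the embryonic cell. Six3, which represses Wnt signalling in the anterior neural plate, was thus at a ratio close to that of Six6 by this probe set.

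A second Six3 probe set had the opposite direction. The signals of 1426637_a_at were 39.7 in the embryonic cell, below the limit, and 658 in the newborn cell, at least 2.57-fold higher in the newborn cell. Those of 1426638_at were 11.5 and 154, below the limit in both, which gives no direction. The mean over the 3 Six3 probe sets was 141 in the embryonic cell, below the limit, and 696 in the newborn cell, at least 2.72-fold higher in the newborn cell, so the direction for Six3 depends on the probe set. The averaged log2 signals differed by 2.30 before the limit was applied, again with signals below the limit included. Both signs occurred among the probe sets of 30.5% of the 2654 genes with at least 2 probe sets that were above a limit.

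Rax, the retina and anterior neural fold homeobox factor that acts at the start of eye formation, was above the limit in both cells. Its only probe set had a signal of 949 in the embryonic cell and 494 in the newborn cell, 1.92-fold higher in the embryonic cell. Both signals stood above their limits of 256 and 348, the newborn cell's signal by a small margin.

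Lhx2, a LIM-homeodomain factor required for the optic vesicle to become an optic cup, was the only measured factor that was at least 4-fold higher in the newborn cell. Its probe set had a signal of 2303 in the embryonic cell and 16758.5 in the newborn cell, 7.28-fold higher in the newborn cell. Of all named genes, 9.27% were called higher in the newborn cell. With scaling to the spike-ins, the log2 ratio of Lhx2 was 2.00 against a median of -0.86 over genes above both limits, and Lhx2 fell just short of 4-fold. Some markers of the optic stalk and astrocytes differed in the same direction. Of 5 measured, Vax1, Gfap and S100b were above the limit in the newborn cell and none was in the embryonic cell. For all named genes the shares were 28.4% in the newborn cell and 30.3% in the embryonic cell. Vax1 was above the limit by 1457396_at only and Gfap by 1440142_s_at only, while S100b was by each of its probe sets. Fgf8 and Ntn1 were below the limit in both cells. The 5 markers summed to 10968 in the newborn cell, the 89.2 of the embryonic cell being a sum of signals below the limit. Of 7 mesenchymal markers, Pdgfra and Col1a2 were above the limit in the newborn cell and none in the embryonic cell. That was 28.6% of them in the newborn cell, close to the 28.4% of all named genes. Col1a2 was above the limit by 1423110_at only. The 7 markers summed to 6117 in the newborn cell, the 519.5 of the embryonic cell again being a sum of signals below the limit. Col1a1, Col3a1, Twist1, Prrx1 and Foxc1 were below the limit in both cells. The part of these markers in the Lhx2 difference was not tested.

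Otx1, an orthodenticle-type factor needed for the ciliary body, was above background in the embryonic cell only. Its probe set had a signal of 1573 in the embryonic cell and 48.8 in the newborn cell, at least 4.52-fold higher in the embryonic cell, close to the threshold of 4. Otx2, which acts in pigment epithelium and photoreceptor precursors, had signals of 62.8 and 41.5 and was below the limit in both cells, so no fold is given. Priming from the poly(A) tail of a single cell's RNA can miss a transcript, so a signal below the limit does not show that a gene was silent. Pax6 and Otx1 were the 2 measured factors called higher in the embryonic cell, where 7.30% of all named genes were called. The median log2 ratio of the 6 factors with a ratio was -1.04, against -0.05 over the 7077 genes with a ratio. Of those ratios, 52.0% were bounds and entered at the bound. The ratio of Pax6 lay at percentile 2.32 among them, those of Six6, Rax and Six3 at 29.6, 33.4 and 34.4, and that of Lhx2 at 85.1.

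**Figure D2:**
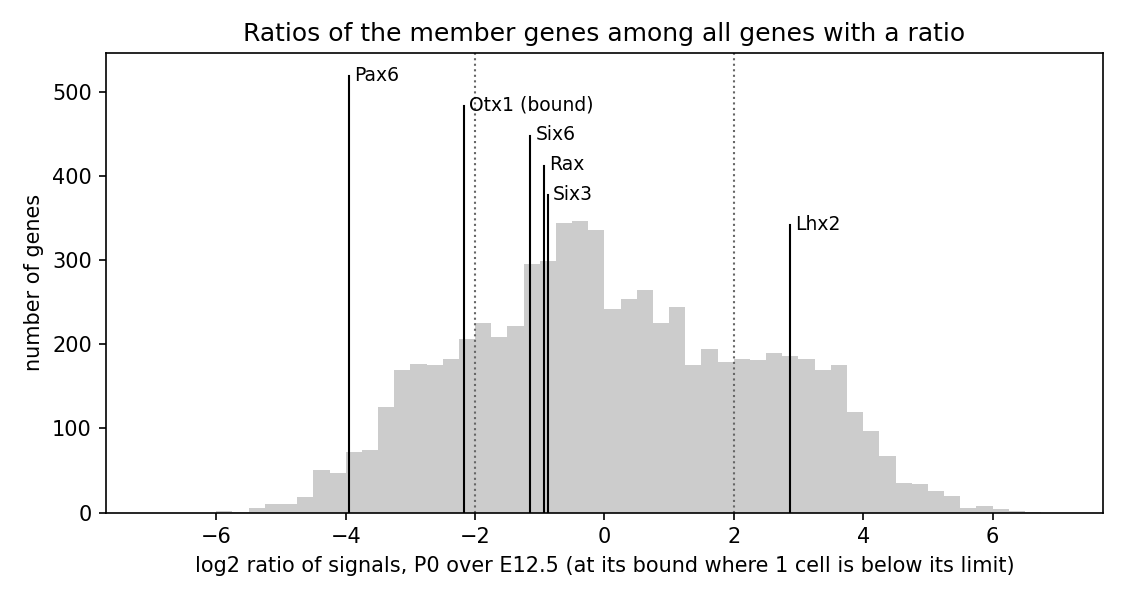
Histogram of the log2 ratio of signals, P0 over E12.5, for the 7077 genes with a ratio (grey, number of genes), with a line at the ratio of each of the 6 factors and dotted lines at 4-fold in either direction. Pax6 at -3.95 and Otx1 at its bound of -2.18 lie beyond the left dotted line, Lhx2 at 2.86 beyond the right one, and Six6, Rax and Six3 between -1.15 and -0.88.

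Of 22 measured paralogues of the eye field factors, from Pax1 to Isl2, 20 were below the limit in both cells, where 60.0% of all named genes were. None was above it in the embryonic cell and 2 were in the newborn cell. Pax8, best known from thyroid and kidney, had signals of 3.67 in the embryonic cell and 5896 in the newborn cell, at least 23.1-fold higher in the newborn cell, while its second probe set was below the limit in both. Six5, expressed in many tissues, had 197 and 3541, at least 13.9-fold higher in the newborn cell. The photoreceptor factor Crx (46.3 and 4.43), the ganglion and amacrine cell factor Isl1 (15.6 and 83.8) and the horizontal cell factor Lhx1 (21.4 and 17.7) were below the limit in both. With the limit at the 95th percentile, 3 paralogues were above it in the embryonic cell and 6 in the newborn cell, and with the mean over probe sets 1 was in the newborn cell.

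Of 28 measured genes for cofactors of these transcription factors, 15 were above background in the embryonic cell, 13 in the newborn cell and 10 in both, against 30.3%, 28.4% and 18.7% of all named genes. Genes of the Groucho family, whose corepressors bind several of these homeodomain proteins, included Tle2 (4568 in the embryonic cell and 4380 in the newborn cell), Tle4 (7831 and 2594), Tle5 (6425 and 4423) and Tle3 (1325 and 488), each differing by less than 4-fold. Tle1 was the exception, with 12.01 and 1345, at least 5.26-fold higher in the newborn cell. Sox2, an SRY-box factor that acts with Pax6, had 10369 and 11739. Among the proteins that assemble with LIM-homeodomain factors, Lmo4, which competes with them for their cofactor, had 1336 and 6088, 4.56-fold higher in the newborn cell. Ldb2, an adaptor for LIM domains, was below the limit in the embryonic cell by all 3 of its probe sets and above it in the newborn cell by all 3, at 1697, 4396 and 2834. Its paralogue Ldb1 was below the limit in both cells, at 24.2 and 10.4. Ssbp4, a partner of the Ldb adaptors, was 4.96-fold higher in the embryonic cell (2057 and 415), while Ssbp2 (4870 and 3038) and Ssbp3 (6297 and 5081) differed by less than 4-fold, as did Rlim (8976 and 4527), a ubiquitin ligase that targets LIM cofactors.

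The Meis factors, homeodomain proteins that regulate Pax6 in the eye, were higher in the embryonic cell by their leading probe sets. Meis1 had signals of 7765 in the embryonic cell and 28.0 in the newborn cell, at least 22.3-fold higher in the embryonic cell, with a second probe set at 6354 and 20.0. Meis2 had 4613 and 73.1, at least 13.2-fold higher in the embryonic cell. Of its 3 further probe sets, 2 had the same direction and 1, 1440091_at, was below the limit in the embryonic cell (10.7) and at 1261 in the newborn cell. Dach1, a corepressor that works with the Eya coactivators, had 14914 and 2.75, at least 42.8-fold higher in the embryonic cell, and its second probe set was at least 2.89-fold higher there. Eya2, a coactivator and phosphatase, had 6.99 and 930, at least 3.64-fold higher in the newborn cell and short of the threshold. Eya1, Eya3, Eya4 and Dach2 were below the limit in both cells. In all, 4 of the 28 cofactor genes were called higher in the embryonic cell and 3 in the newborn cell, against 7.30% and 9.27% of all named genes, and the median log2 ratio of the 17 with a ratio was -0.60. The 4 became 2 with the mean over probe sets, and the 3 became 0 with scaling to the spike-ins.

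**Figure D3:**
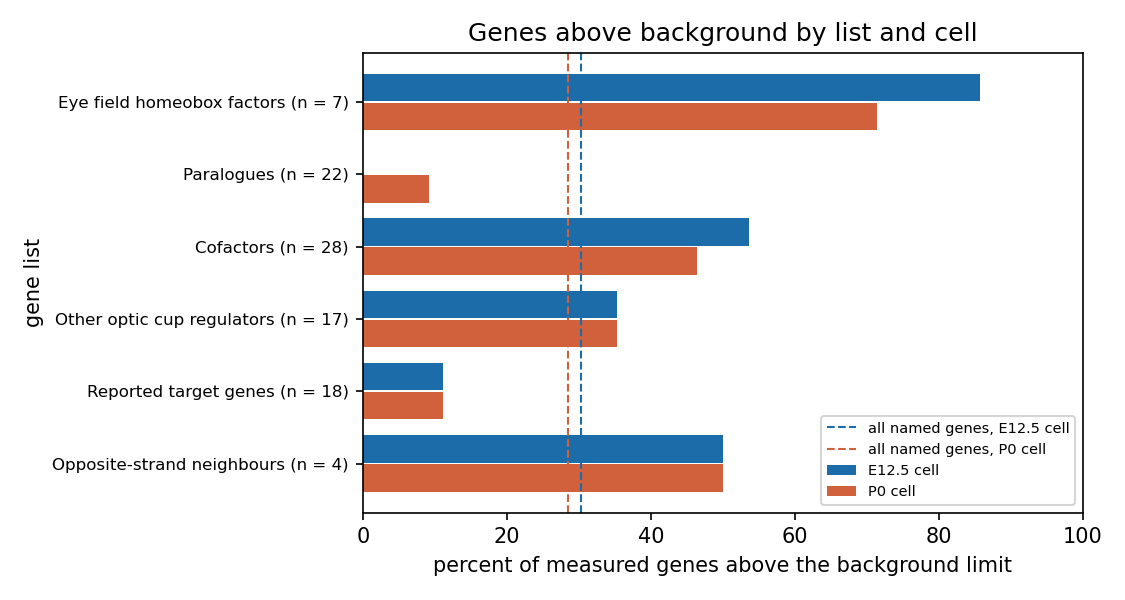
Percent of the measured genes of each list that were above the background limit in the embryonic cell (blue bars) and the newborn cell (orange bars), with dashed lines at the share of all named genes (30.3% and 28.4%). The eye field factors (6 and 5 of 7) and the cofactors (15 and 13 of 28) lie right of both lines, and the paralogues (0 and 2 of 22) and reported target genes (2 and 2 of 18) left of them.

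Of 17 other measured regulators of the optic vesicle and cup, 6 were above the limit in each cell and 3 in both, shares near the 30.3%, 28.4% and 18.7% of all named genes. Of the 17, 4 were called higher in the embryonic cell and 3 in the newborn cell, against 7.30% and 9.27% of all named genes. The ventral homeobox gene Vax2 had 5823 in the embryonic cell and 5.38 in the newborn cell, at least 16.7-fold higher in the embryonic cell. Its paralogue Vax1, of the optic stalk, had 6.76 and 4946, at least 19.4-fold higher in the newborn cell by 1 of its probe sets, the other being below the limit in both. Tbx3, a T-box factor, was at least 19.2-fold higher in the newborn cell (132 and 4918), with 3 of its 5 probe sets below the limit in both cells. Nr2e1, a nuclear receptor of progenitors, was at least 13.2-fold higher there (60.6 and 3365), with its second probe set below the limit in both cells. The nuclear receptor gene Nr2f1 had 16401 and 48.7, the Wnt modulator gene Sfrp2 20414.5 and 532, and the Notch effector gene Hes1 4140 and 479.7, each called higher in the embryonic cell. Tbx2, a dorsal factor, was above the limit in both (1839 and 6122) and differed 3.33-fold. Mitf, the pigment cell regulator, and Foxd1, Hesx1 and Prox1 were below the limit in both cells. With the mean over probe sets, 0 of these 17 genes were called higher in the newborn cell: Vax1 and Nr2e1 kept bounds of at least 2.83-fold and at least 3.67-fold there, and the Tbx3 mean was below the limit in both cells.

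Of 18 measured genes reported to be regulated by the eye field factors, 15 were below the limit in both cells, a larger share than the 60.0% of all named genes. The 15 included Neurog2 and Atoh7, neurogenic factors downstream of Pax6, and Tyr, Tyrp1, Dct, Rpe65 and Best1, pigment epithelium genes downstream of Otx2. Cyclin D1 (Ccnd1) had 11180 in the embryonic cell and 309 in the newborn cell, at least 32.1-fold higher in the embryonic cell, with both further probe sets also called higher there. The cell cycle inhibitor gene Cdkn1b, a reported target of Six6, had 3309 and 683, 4.85-fold higher in the embryonic cell, a call that became a bound of at least 2.38-fold with the mean over probe sets, because the newborn cell's mean of 60.6 was below its limit. Rlbp1, which encodes a retinaldehyde-binding protein, had 31.1 and 16125, at least 63.1-fold higher in the newborn cell. Beside these, 0 of 8 measured photoreceptor markers exceeded the limit in the embryonic cell and 0 in the newborn one, 9 of 20 ciliary margin markers did in the embryonic cell, 8 in the newborn cell and 6 in both, and of 9 pigment cell markers Trpm1 and Rab38 were in the embryonic cell and none in the newborn cell. The shares of all named genes above the limit were 30.3% in the embryonic cell, 28.4% in the newborn cell and 18.7% in both. Of the 20 ciliary margin markers, 5 were called higher in the embryonic cell (Cdon 10.7-fold, Wfdc1 25.8-fold, Gja1, Mecom and Otx1, itself an eye field factor). In the newborn cell 2 were called higher (Sox9 at least 35.6-fold and Bmp7). Those calls were received by 7.30% and 9.27% of all named genes, and the newborn count was near its share. Of 9 ganglion cell markers 1 was above the limit in each cell, of 12 amacrine and horizontal cell markers 3 in each, and of 10 lens markers 1 in the embryonic cell, while 0 of 5 microglial and 0 of 2 erythroid markers were in either. The ganglion cell marker Gap43 was called higher in the embryonic cell and Ebf3 in the newborn cell. Of the 12 amacrine and horizontal cell markers, 2 were called higher in the newborn cell and 0 in the embryonic cell, against 9.27% and 7.30% of all named genes. The 2 were Slc6a9, 6.14-fold, and Calb1, at least 9.88-fold by 1417504_at only.

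Of 4 transcripts that lie next to an eye field gene on the opposite strand, 2 were above the limit in both cells. Six3os1, a noncoding RNA that overlaps Six3 in RefSeq's annotation, had signals of 2091 in the embryonic cell and 3447 in the newborn cell, 1.65-fold higher in the newborn cell. Its direction was opposite to that of the leading Six3 probe set and the same as that of 1426637_a_at. The labelled material was PCR-amplified cDNA, which carries both strands, so where Six3 and Six3os1 overlap their signals cannot be told apart. The neighbour of Six6, Six6os1, listed under its RefSeq name 4930447C04Rik, had 741 and 1047, with its 2 further probe sets below the limit in both cells. Pax6os1 (6.99 and 45.2) and Otx2os1 (52.5 and 102) were below the limit in both cells.

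**Figure D4:**
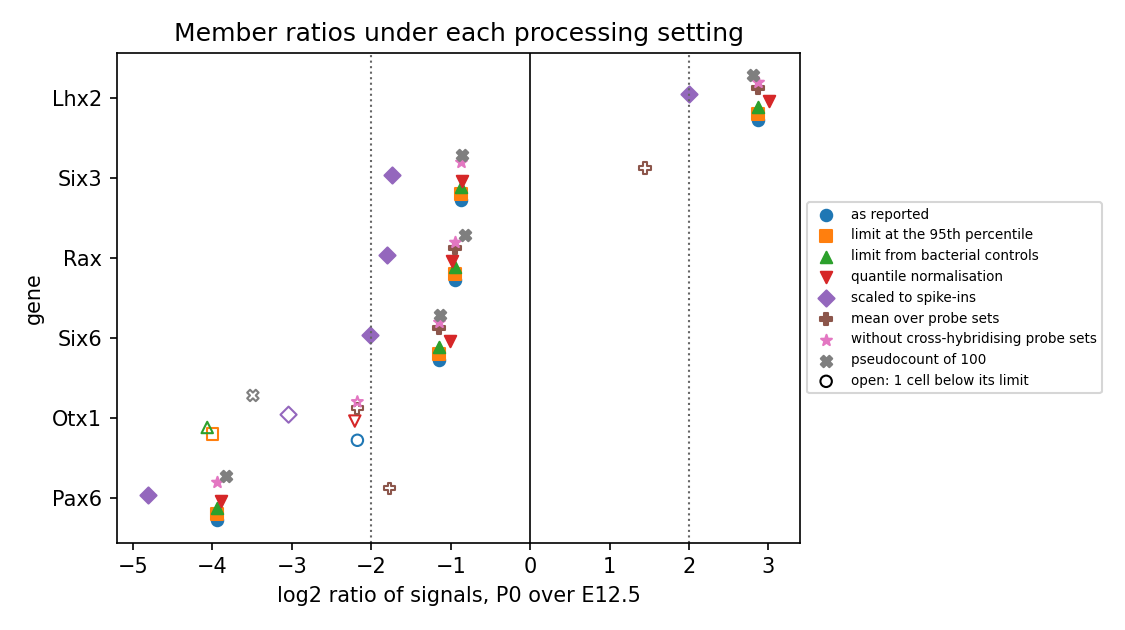
Log2 ratio of signals, P0 over E12.5, of the 6 factors with a ratio, under each processing setting (symbols), with dotted lines at 4-fold in either direction. Pax6, Otx1, Six6 and Rax stay left of 0 and Lhx2 right of 0 under every setting plotted, while Six3 changes side with the mean over probe sets. Open symbols mark values with 1 cell below its limit, such as all those of Otx1 and those of Six3 (1.45) and Pax6 (-1.77) with the mean over probe sets, which are bounds.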

How the data were processed

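Single retinal cells were lysed, and their poly(A) RNA was reverse transcribed with oligo dT, tailed and amplified by 35 cycles of PCR, per the labels' protocols. The deposited values are signal intensities that the authors made with MAS5, a method named both in the submitters' processing notes and in the design text of the series; the version is not given in the sources used here. The 2% trimmed mean was 500.0 on both arrays. GEO's platform annotation paired 34958 of the 45101 probe sets with a single symbol, 932 with several and listed none for 9211; 34754 symbols were taken by gene identifier from RefSeq (GRCm38.p6). Limits, ratios and counts were computed in Python 3.11.15 with pandas and checked on simulated data. There the changed genes lay far above the limit and the noise was set by hand, so the check does not measure calls caused by noise between single cells. The members and gene lists were chosen with earlier results of these data known. Named by rule were all members with every probe set and, in the companion lists, up to 8 genes by signal that were called and up to 8 above both limits, with some below both; marker genes, Eya2 and Tle3 were named after their values were seen. Detection calls were not used, read depth does not apply to arrays, and the 2 arrays limit the precision. Alternatives changed the limit, scaling, choice of probe set, pseudocount and fold threshold.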

Additional observations from a re-analysis of the deposited data

How the results depend on the processing

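Of 46 alternative values for the counts of factors and their probe sets, 41 stayed within 1.5 times the reported count. Part of these could hardly change, so the 41 do not measure robustness. Scaling to the spike-ins moves signals and limit together, which fixes the counts above the limit. Quantile normalisation keeps the order of signals within an array and so nearly fixes those counts as well. With the mean over probe sets, 3 factors were above the limit in both cells in place of 5, and 1 was at least 4-fold higher in the embryonic cell in place of 2, since the Pax6 mean in the newborn cell was below its limit and left a bound of -1.77 (log2). With that setting 5 genes of all companion lists were called higher in the newborn cell in place of 9. With a fold threshold of 8, 1 factor was higher in the embryonic cell and 0 in the newborn cell. Scaling to the spike-ins left 0 factors higher in the newborn cell (Lhx2 2.00) and put Six6 at -2.02, past 4-fold, while the median of genes above both limits moved to -0.86; of all calls 33.3% were then higher in the newborn cell, in place of 55.9%. The mean over probe sets changed the calls over all genes, from 1329 to 701 for the embryonic cell and from 1687 to 863 for the newborn one. A fold threshold of 8 gave 587 and 947, and one of 2 gave 2282 and 2482. The limit at the 95th percentile gave 1991 and 1992. Probe sets of the factors above that limit numbered 10 in the embryonic cell and 9 in the newborn cell. Of 54 alternative log2 ratios of the factors, 48 kept their side of the threshold. Many of them could not change. A measured ratio does not depend on the limit, and for a gene with 1 probe set the mean equals that probe set. The 48 also include Six3 with the mean over probe sets, where its log2 ratio changed sign, from -0.88 to 1.45, without reaching 4-fold. No paired analysis was possible because each age has 1 cell, and no cell could be left out.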
